A study of Mus musculus with 4 samples.

Results

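The genes described here make, break down and read cyclic AMP (cAMP) in the mouse arcuate nucleus of the hypothalamus (ARC). They were chosen by symbol, as every adenylyl cyclase (*Adcy*), phosphodiesterase (*Pde*), protein kinase A subunit and protein kinase inhibitor gene with UMIs (unique molecular identifiers, 1 per captured transcript) in at least 20 nuclear barcodes. Of 43 matching symbols 42 passed, 10 cyclases, 23 phosphodiesterases, 6 PKA subunits and 3 PKA inhibitors, out of 31053 genes, and only *Pde6c* was left out, with UMIs in 6 barcodes. Their UMIs over the 4 libraries ranged from 21 for *Pde6b* to 169007 for *Prkacb*.

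Adenylyl cyclases turn ATP into cAMP when G proteins coupled to hormone and transmitter receptors activate them, and calcium stimulates or inhibits some of them. Phosphodiesterases end the signal by hydrolysing cAMP, cGMP or both. cAMP frees the catalytic subunits of protein kinase A (PKA) from type I or type II regulatory subunits, and the small inhibitor proteins encoded by *Pkia*, *Pkib* and *Pkig* block the freed subunits. In the ARC this route carries signals from melanocortin, dopamine and many peptide receptors.

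Nuclei came from ARC punches of wildtype male C57BL/6J mice that were 10 weeks old. The DOCA-salt group received a pellet of deoxycorticosterone acetate, a mineralocorticoid, together with a salt solution to drink for 3 weeks, and the Sham group had surgery without the pellet and drank water. Each group has 2 libraries, and each library pools nuclei of 2 mice, so the library is the unit of replication and differences between single mice cannot be seen. The 4 libraries hold 2805 to 19754 barcodes and 45126915 to 79437196 UMIs, and 39176 of 41649 barcodes were kept. The UMIs in kept barcodes were 37442185 of 45126915 in DOCA-salt 1 and 69382757 of 79437196 in DOCA-salt 2. In the Sham libraries a smaller part was kept, 21255137 of 53257230 in Sham 1 and 39528518 of 59293582 in Sham 2.

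Kept nuclei were put into classes by marker genes, which give 24105 neurons, 1250 oligodendrocytes, 940 astrocytes, 489 oligodendrocyte precursors, 423 microglia, 202 endothelial and 106 mural nuclei, while 11497 stayed ungated. In every library each gate held more of its own markers than any other gate did. The smallest margin was in mural nuclei, at 1665 or more counts per 1000000 UMIs (CPM) against 1319 CPM or less in endothelial nuclei. Nuclei were gated by these same markers, so this order describes the gates and is not an independent check of them. Sham 1 stands apart by its depth, with a median of 8215 UMIs per kept nucleus against 2401 to 3278 in the others. The libraries also differ in the neuron types they hold: 578 nuclei with markers of striatal projection neurons lie in DOCA-salt 1 and at most 6 in any other library, and *Agrp* neurons number 411, 0, 29 and 156 in DOCA-salt 1, DOCA-salt 2, Sham 1 and Sham 2. Summed *Agrp* neuron markers over all nuclei were 513, 37.7, 204 and 341 CPM in the same order. Nuclei with melanin-concentrating hormone markers (313) and with orexin markers (113) reached the minimum of 10 in DOCA-salt 2 alone. Libraries shared between 5 and 49 barcodes per pair.

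Neuronal transcripts were also counted in nuclei gated as other cells. The summed level of the 11 neuronal markers was 19.6% ± 5.13 (SD, n = 4 libraries) of the neuronal level in astrocytes and 32.0% ± 9.95 in microglia, which are the lowest and highest means of the 6 non-neuronal classes in the fits. The part of these transcripts in the glial values below was not tested. Levels below are CPM of the class in a library, given in the order DOCA-salt 1, DOCA-salt 2, Sham 1 and Sham 2 unless a range is named, and a class difference is a log2 fold change against the mean of the other classes.

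Broad classes differed in their cyclases and phosphodiesterases, while every PKA subunit and inhibitor value tested stayed under a log2 fold change of 1 in size. In the edgeR fit over 7 broad classes 29 of the 42 members had enough counts to be tested, and 19 of their 203 gene and class values (9.36%) passed an FDR under 0.05 with an absolute log2 fold change of at least 1, 16 higher and 3 lower. Over all genes 8.13% of the values passed, so the share among the members was near that of the transcriptome. The 19 calls fell on 13 members, and no PKA subunit or inhibitor was among them. The median log2 fold change of the 29 members was 0.31 in neurons, -0.43 in astrocytes and -0.39 in oligodendrocytes, where the medians of all genes tested were 0.02, -0.06 and -0.03, and between -0.19 and 0.16 in the other 4 classes. The 13 members left untested there, among them *Adcy1*, *Adcy9*, *Pde2a*, *Pde9a*, *Pde11a*, *Pkib* and the *Pde6* genes, had too few UMIs in the smaller classes. The filter on low counts can keep a gene through the class where it is high. Entry to the fit was therefore not independent of a high class, and the FDR values do not account for this. Without the filter, where all 42 members were tested, 26 member values were called, 18 of them shared with the 19. The share called over all 22655 genes of that fit is not given here, so the count of 26 is a description only.

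**Figure D1:**
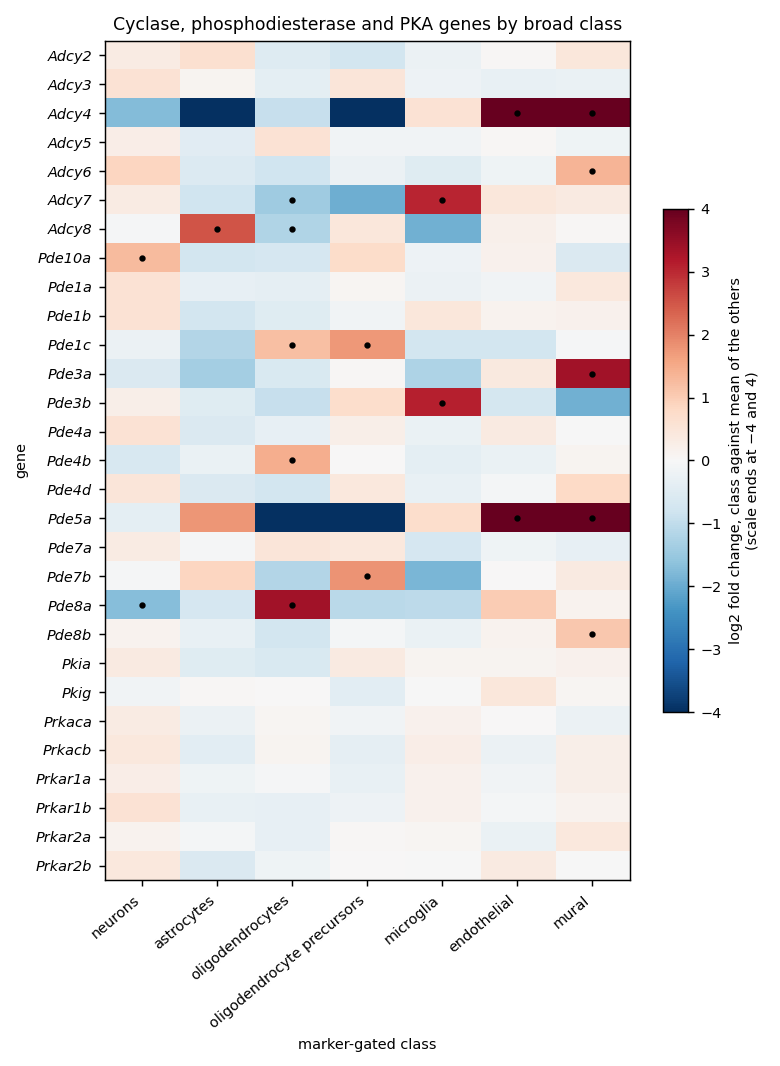
Log2 fold change of the 29 tested members (rows) in each broad class (columns) against the mean of the other classes, with a black dot where the value was called. Dots sit on cyclases and phosphodiesterases, and the rows of PKA subunits and inhibitors stay pale; colours end at a log2 fold change of 4 in either direction, and the saturated *Adcy4* and *Pde5a* values depend on classes with counts of 0.

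2 cyclases were high in glia. *Adcy8*, a cyclase stimulated by calcium and calmodulin, was measured in astrocytes at 57.5, 69.5, 58.1 and 25.2 CPM and in neurons at 13.2, 14.9, 13.3 and 9.36 CPM. Every astrocyte value lay above every neuronal one, and the log2 fold change of 2.52 ± 0.32 (SE, n = 4 libraries) in astrocytes passed (FDR = 5.19e-09). The astrocyte value rests on 16, 45, 10 and 6 UMIs. *Adcy7*, which is not regulated directly by calcium, was measured in microglia at 110, 62.3, 34.8 and 72.3 CPM and in neurons at 4.91, 22.3, 17.2 and 13.6 CPM, a log2 fold change in microglia of 3.05 ± 0.37 (FDR = 2.52e-09). Both genes were called lower in oligodendrocytes, *Adcy8* at -1.22 ± 0.48 (FDR = 0.0490) and *Adcy7* at -1.43 ± 0.53 (FDR = 0.0381), and each of these calls was lost under some of the alternatives.

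*Pde3b*, the phosphodiesterase through which insulin lowers cAMP in fat and liver, was high in microglia. Its microglial levels were 181, 54.2, 74.6 and 140 CPM, from 23, 20, 15 and 29 UMIs, against 16.5 to 22.7 CPM in neurons, and the groups did not overlap. The log2 fold change in microglia was 3.11 ± 0.30 (FDR = 1.34e-12), higher than the mean of the other classes in 4 of 4 libraries. Microglia carried calls for 1 cyclase and 1 phosphodiesterase, and no other member was called in them. These are 2 of 29 members tested, where 289 of 7796 genes were called higher and 104 lower in microglia.

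Oligodendrocytes carried calls for 3 phosphodiesterases, of which *Pde8a* and *Pde4b* are specific for cAMP. These 3 were the members called higher in them among 29 tested, where 531 of 7796 genes were called higher. *Pde8a*, a high-affinity enzyme for cAMP, was measured in oligodendrocytes at 117, 81.8, 71.0 and 80.6 CPM and in neurons at 3.79, 4.07, 6.47 and 5.66 CPM. Its log2 fold change was 3.35 ± 0.27 in oligodendrocytes (FDR = 7.81e-16) and -1.70 ± 0.31 in neurons (FDR = 6.33e-06). The summed libraries gave a *Pde8a* level 17.5-fold that of neurons, 10.9-fold that of astrocytes and 3.57-fold that of endothelial nuclei, the next highest class.

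*Pde4b*, the target of several anti-inflammatory inhibitors, stood at 293, 190, 201 and 227 CPM in oligodendrocytes and at 100, 61.0, 71.7 and 76.0 CPM in neurons. All oligodendrocyte values were higher, and the log2 fold change of 1.46 ± 0.12 passed (FDR = 3.34e-15). The calcium-dependent *Pde1c* was called in oligodendrocytes at 1.21 ± 0.31 (FDR = 0.00176), higher in 3 of 4 libraries, and this call was lost without DOCA-salt 2 (FDR = 0.0727).

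Oligodendrocyte precursors carried calls for *Pde1c* and *Pde7b*, 2 of 29 members tested, where 401 of 7796 genes were called higher and 190 lower. *Pde1c* hydrolyses both nucleotides and was measured in the precursors at 49.7, 38.9, 33.7 and 111 CPM, against 18.4, 8.53, 23.8 and 27.1 CPM in neurons, with a log2 fold change of 1.72 ± 0.34 (FDR = 1.23e-04). *Pde7b*, specific for cAMP, was measured in them at 59.7, 25.3, 27.0 and 64.3 CPM, where mature oligodendrocytes averaged 6.73 CPM, and its log2 fold change was 1.80 ± 0.37 (FDR = 2.05e-04). *Pde8a*, high in the mature cells, averaged 6.11 CPM in the precursors. The precursor counts are small, 4 to 13 UMIs of *Pde7b* per library.

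**Figure D2:**
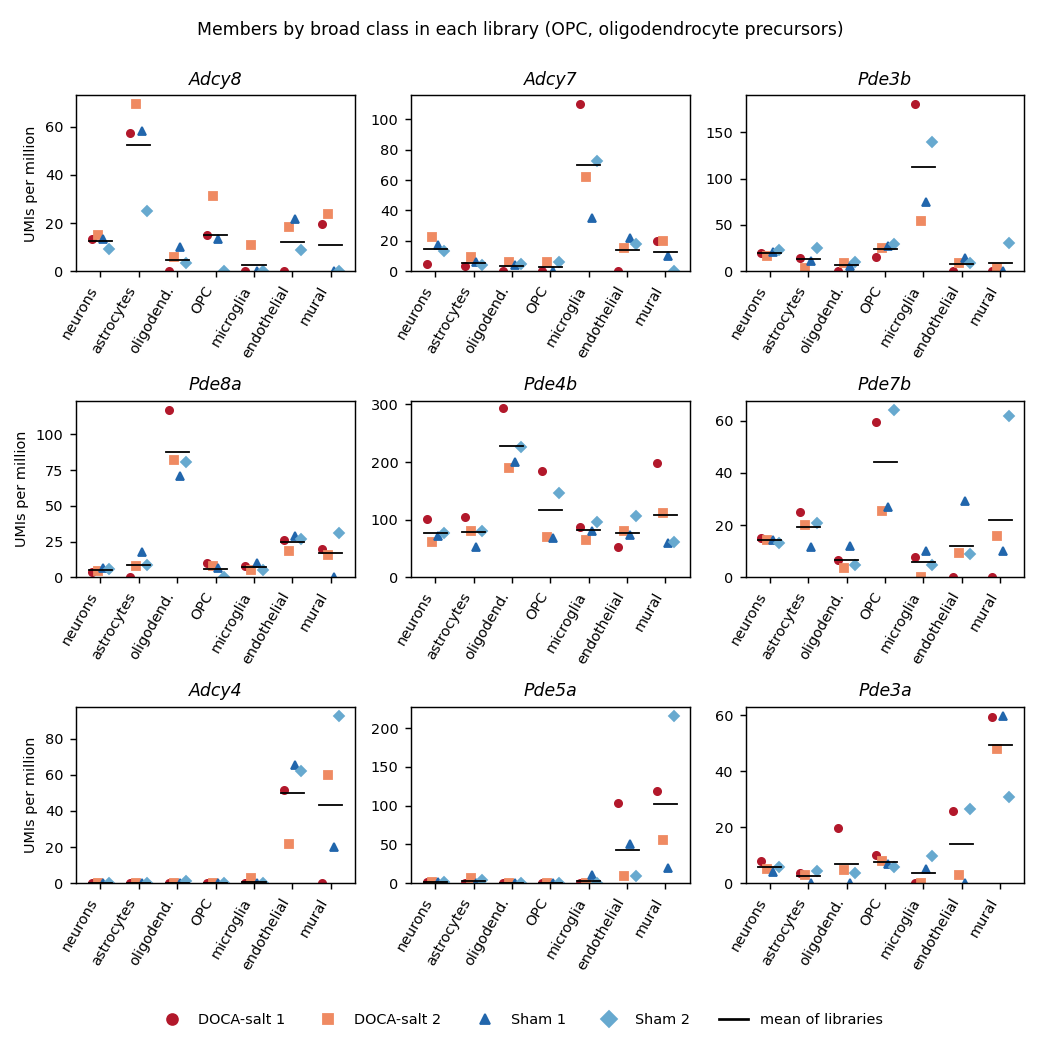
Level of 9 members in CPM (vertical axis, from 0) in each of the 7 broad classes, with 1 point per library and a bar at the mean of the libraries. *Adcy8* is highest in astrocytes, *Adcy7* and *Pde3b* in microglia, and *Pde8a* and *Pde4b* in oligodendrocytes. *Adcy4* and *Pde5a* are highest in the vascular classes, and *Pde3a* in mural nuclei alone.

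Mural nuclei carried 5 calls among the 29 members tested, and endothelial nuclei 2, all of them higher. Of all 7796 genes tested, 311 were called higher and 17 lower in mural nuclei, and 397 and 42 in endothelial nuclei. *Adcy4* was measured in endothelial nuclei at 51.7, 21.5, 65.5 and 61.8 CPM and in mural nuclei at 0, 59.7, 19.9 and 92.7 CPM, from 25 and 20 UMIs in all. Neurons held 32 UMIs of it in all, a level of 0.261 CPM, and astrocytes and oligodendrocyte precursors held 0. Over the summed libraries the endothelial level was 156-fold that of neurons, at least 18.1-fold that of astrocytes and at least 14.0-fold that of the precursors, where the bounds take the 3 counts that a count of 0 allows over the summed class. The calls passed in endothelial (FDR = 1.08e-09) and mural nuclei (FDR = 1.71e-08).

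*Pde5a*, the cGMP phosphodiesterase blocked by sildenafil in smooth muscle, was measured in mural nuclei at 119, 55.7, 19.9 and 216 CPM and in endothelial nuclei at 103, 9.23, 51.0 and 8.83 CPM. The mural level over the summed libraries was 66.7 CPM, with an exact Poisson 95% interval of 44.7 to 95.9 that covers counting error only, which was 55.6-fold that of neurons and at least 52.2-fold that of oligodendrocytes. The mural call passed (FDR = 4.91e-09), as did the endothelial one (FDR = 2.18e-04), although the endothelial level was above the mean of the other classes in only 2 of 4 libraries. *Pde3a*, which smooth muscle uses to let cGMP raise cAMP, was measured in mural nuclei at 59.3, 47.8, 59.8 and 30.9 CPM against 4.11 to 7.97 CPM in neurons, with a log2 fold change of 3.35 ± 0.53 (FDR = 2.76e-06).

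*Adcy6* (log2 fold change 1.37 ± 0.31, FDR = 0.00171) and *Pde8b* (1.09 ± 0.24, FDR = 0.00179) were also called in mural nuclei. The mural gate held 16, 64, 11 and 15 nuclei, so several of these values rest on 2 or 3 UMIs in a library. Endothelial and mural markers crossed between the gates: endothelial markers summed to 987 to 3003 CPM in mural nuclei against 4547 to 10990 CPM in endothelial nuclei, and mural markers to 501 to 1319 CPM in endothelial nuclei. The part of this overlap in the shared *Adcy4* and *Pde5a* values was not tested.

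*Pde10a*, an enzyme for cAMP and cGMP best known from striatal projection neurons, was the only member called higher in neurons. Of all 7796 genes tested, 141 were called higher there. Its neuronal level was 194, 61.4, 103 and 112 CPM, against 36.0, 24.7, 34.9 and 16.8 CPM in astrocytes and 89.5, 64.1, 67.4 and 76.0 CPM in oligodendrocyte precursors. The neuronal log2 fold change of 1.26 ± 0.13 passed (FDR = 3.50e-12), but in DOCA-salt 2 the neuronal level lay under that of the precursors. Without the striatal-type nuclei the level in DOCA-salt 1 was 122 CPM.

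The PKA holoenzyme genes were read in every broad class, and none was called. *Prkar1b*, a type I regulatory subunit of the nervous system, stood at 461, 530, 459 and 501 CPM in neurons and at 172, 287, 308 and 273 CPM in astrocytes, and its neuronal log2 fold change of 0.57 ± 0.08 was the largest of any subunit in neurons (FDR = 8.91e-08). In neurons *Prkacb* (0.42 ± 0.08), *Prkar2b* (0.42 ± 0.13), *Prkaca* (0.33 ± 0.09), *Prkar1a* (0.25 ± 0.09) and the inhibitor gene *Pkia* (0.37 ± 0.10) also had an FDR under 0.05 but stayed under a log2 fold change of 1. *Prkar2a* had no value with an FDR under 0.05 in any class (smallest FDR = 0.0593), and neither had the inhibitor gene *Pkig* (0.219).

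Summed over the 6 subunits, the PKA level was 59.4% ± 10.0 (SD, n = 4 libraries) of the neuronal level in astrocytes and 83.5% ± 14.8 in microglia. The neuronal markers in the same gates stood at 19.6% and 32.0%, and their part in the PKA values was not tested. The summed inhibitors ranged from 55.3% ± 10.2 in oligodendrocytes and 63.8% ± 4.44 in astrocytes to 87.0% ± 12.4 in microglia and 90.9% ± 13.6 in oligodendrocyte precursors. *Pkia* had its lowest log2 fold change in oligodendrocytes (-0.62 ± 0.14, FDR = 4.05e-04), at 39.1, 97.2, 89.2 and 70.1 CPM.

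Type I regulatory subunits (*Prkar1a* and *Prkar1b*) made up most regulatory-subunit UMIs in every class. Their share in neurons was 79.1%, 85.8%, 83.8% and 80.7%, a mean of 82.4% ± 3.02 (SD, n = 4), and the means of the other broad classes ran from 78.2% in oligodendrocyte precursors to 84.0% in mural nuclei. Counting per transcript end can differ between genes, so the share is compared between classes and not read as protein. The treatment groups overlapped in neurons, with means of 82.5% in DOCA-salt and 82.2% in Sham (exact permutation test, 2-sided, p = 1, where 2 against 2 libraries cannot go below 0.333).

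Of the genes that respond to cAMP, many carry a cAMP response element, TGACGTCA, which the transcription factor CREB binds after PKA phosphorylates it. The letters were searched on both strands in the 250 bases before RefSeq starts (GRCm38.p6), which were at hand for 33 of the 42 members. Such a start need not be the outermost start of a gene. The stretches of *Pde4b*, *Pde4a* and *Prkar1a* below lie inside the annotated genes, which begin at positions 102087543, 21165714 and 109649405. The full element occurred in 1 member (3.03%), against 1.77% of all 27025 genes with a promoter, and its 6-letter part TGACGT, which the full element contains, in 4 members (12.1%) against 7.29%. The 4 stretches are shown because they hold the full element (*Prkar1a*) or its 6-letter part (the other 3, on either strand), with the match in capitals; a match is a description of sequence only.
*Prkar1a*, chr11:109650860-109650947, plus strand, match beginning 49 bases before the start: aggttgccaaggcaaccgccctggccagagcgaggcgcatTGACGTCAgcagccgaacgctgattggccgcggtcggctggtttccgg
*Pde4a*, chr9:21184010-21184095, plus strand, 51 bases before: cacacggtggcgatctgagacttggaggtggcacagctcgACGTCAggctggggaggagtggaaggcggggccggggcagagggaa
*Pde4b*, chr4:102421480-102421554, plus strand, 35 bases before: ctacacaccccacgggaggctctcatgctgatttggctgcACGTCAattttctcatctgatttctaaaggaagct
*Adcy9*, chr16:4420499-4420562, minus strand, 24 bases before: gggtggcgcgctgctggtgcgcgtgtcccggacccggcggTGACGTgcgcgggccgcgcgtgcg
The 4 genes had no call in common between the broad classes: *Pde4b* was called in oligodendrocytes, *Prkar1a* and *Pde4a* were called nowhere, and *Adcy9* had too few counts for that fit.

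Neuron types differed from each other in fewer members than broad classes did. Types with at least 10 nuclei in every library were the *Tac2*, *Ghrh*, *Sst*, dopaminergic and ventromedial gates and the other neurons, and 30 members were tested. Of 180 values 4 passed (2.22%), against 1.4% over all genes. Of these, 2 were higher and 2 lower. The median log2 fold change of the members lay between -0.05 in *Tac2* neurons and 0.12 in the other neurons, against medians within 0.005 of 0 over all genes.

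*Adcy1*, a cyclase that calcium and calmodulin stimulate, set *Tac2* neurons apart. *Tac2* encodes neurokinin B, which the ARC neurons that drive pulses of gonadotropin release make with kisspeptin and dynorphin. *Adcy1* stood at 71.7, 42.3, 94.9 and 80.0 CPM in them, from 59, 12, 13 and 65 UMIs, and at 32.9, 33.4, 32.6 and 24.2 CPM in the other neurons. All 4 *Tac2* values were higher, and the log2 fold change of 1.57 ± 0.19 passed (FDR = 9.16e-08) under each alternative in which the gene was tested. In *Ghrh* neurons, which release growth hormone-releasing hormone, *Adcy1* was called lower (-1.03 ± 0.31, FDR = 0.0368) from 10, 2, 4 and 9 UMIs, a call that 7 of the alternatives did not keep.

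*Pkib*, which encodes the beta form of the PKA inhibitor, was called higher in dopaminergic neurons. Its levels there were 32.4, 126, 10.5 and 41.5 CPM against 26.5, 35.3, 19.7 and 23.6 CPM in the other neurons, so DOCA-salt 2 was far above the rest and Sham 1 lay below its own other neurons. The log2 fold change was 1.36 ± 0.24 (FDR = 2.31e-04), and without DOCA-salt 2 it was 0.83 (FDR = 0.0434), under the required size. *Adcy7* was called lower in ventromedial neurons (-1.33 ± 0.43, FDR = 0.0321), higher than the mean of the other types in 1 of 4 libraries, and the call was lost without any single library except DOCA-salt 1.

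A fit that also took types with 10 nuclei in at least 2 libraries, added after the nuclei per gate had been counted, brought in *Agrp*, *Pomc* and suprachiasmatic neurons and gave 8 calls among 288 member values (2.78%), against 1.52% over all genes. Suprachiasmatic nuclei, marked by *Vip* and other clock-centre genes, held 4 of them from 3 libraries, among 32 members tested (12.5%, against 2.45% of all genes). *Pde7b* stood there at 39.2, 32.0 and 38.3 CPM (DOCA-salt 2 and then the Sham pair), against 13.2, 14.2 and 13.3 CPM in the other neurons of those libraries, with a log2 fold change of 2.07 ± 0.25 (FDR = 2.67e-08). *Pkib* stood at 123, 35.6 and 45.0 CPM (1.73 ± 0.22, FDR = 5.67e-08), which places suprachiasmatic beside dopaminergic neurons as the types with the highest *Pkib* means, 67.9 and 52.5 CPM.

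*Pde11a*, which hydrolyses both nucleotides, was called in suprachiasmatic nuclei too (2.33 ± 0.41, FDR = 6.62e-05), but at 1.57 CPM in DOCA-salt 2 against 28.5 and 49.5 CPM in the Sham libraries. *Pde10a* was the fourth call (1.25 ± 0.20, FDR = 9.97e-06), at 241, 78.3 and 180 CPM. In Sham 1 this level lay under that of all neurons of the library, given above. *Pkib* was called lower in *Tac2* (-1.24 ± 0.36, FDR = 0.0309) and ventromedial neurons (-1.08 ± 0.35, FDR = 0.0239) in this fit. *Adcy8* just passed in dopaminergic neurons (1.01 ± 0.30, FDR = 0.0349), where *Pkib* no longer reached the required size (0.92). In *Agrp* and *Pomc* neurons, the hunger and satiety neurons of the ARC, no member was called. *Prkar2b*, the type II regulatory subunit of brain and fat, came closest in *Agrp* neurons at 119, 116 and 92.9 CPM (DOCA-salt 1 and then the Sham pair), against 93.8, 57.4 and 68.2 CPM in the other neurons of those libraries (0.67 ± 0.11, FDR = 2.40e-05).

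**Figure D3:**
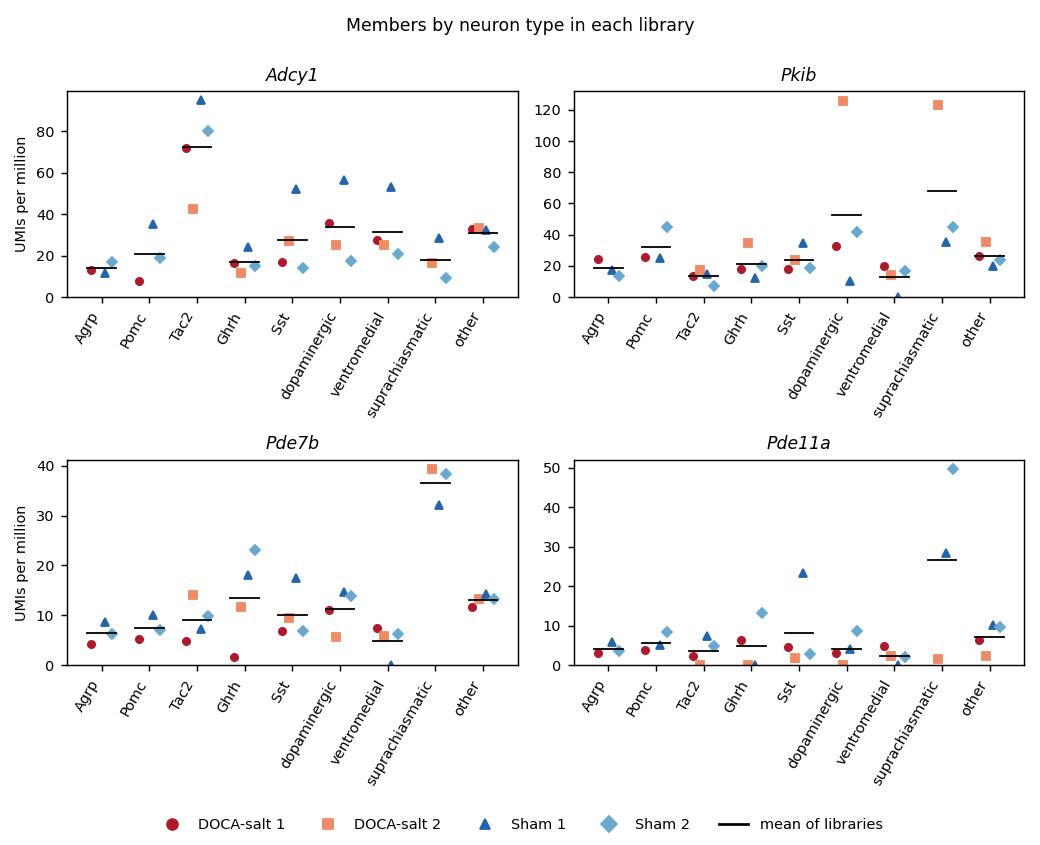
Level of *Adcy1*, *Pkib*, *Pde7b* and *Pde11a* in CPM (vertical axis, from 0) in 9 neuron types, with 1 point per library that has at least 10 nuclei of the type and a bar at the mean. *Adcy1* is highest in *Tac2* neurons in all 4 libraries, *Pde7b* is highest in suprachiasmatic neurons, and *Pkib* in dopaminergic and suprachiasmatic neurons is led by DOCA-salt 2.

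In the fit over types present in every library, PKA subunits varied little. None was called, and log2 fold changes of the 6 subunits lay between -0.27 for *Prkar2b* and 0.24 for *Prkar1b*, both in ventromedial neurons, where *Prkar1b* alone had an FDR under 0.05 (0.00834). *Pkia* reached 0.36 ± 0.12 in the same neurons (FDR = 0.0444). *Pkig* ranged from -0.42 to 0.21 with no FDR under 0.152.

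Striatal-type neurons showed the widest departure of these genes from other neurons, in a single library and so without a test. In DOCA-salt 1, 34 members had enough counts to be read, and 8 were at least 2-fold higher and 4 at least 2-fold lower in the 578 striatal-type nuclei than in the other neurons, together 35.3%, against 14.9% of all genes read. *Pde1b*, a calcium-dependent phosphodiesterase of striatal projection neurons, stood at 339 CPM (exact Poisson 95% interval 318 to 360) against 46.0 CPM (43.1 to 49.0), a ratio of 7.37. *Pde10a* stood at 847 CPM (814 to 880) against 123 CPM (119 to 128), and *Adcy5*, the main cyclase behind dopamine signals in the striatum, at 494 CPM (469 to 519) against 119 CPM (114 to 124).

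*Pde7b* was 4.97-fold, *Pde8b* 2.86-fold, *Prkar2b* 2.85-fold, *Pde2a* 2.58-fold and *Pkig* 2.21-fold higher in them, and *Adcy9*, at a ratio of 2.00, lay just outside. The 4 lower members were all cyclases: *Adcy6* at 11.2 against 77.0 CPM, *Adcy8* at 0.29 of the level in other neurons, *Adcy2* at 18.8 against 50.1 CPM and *Adcy7* at 2.31 against 5.51 CPM. The other 5 PKA subunit genes were lower by less than 2-fold, such as *Prkaca* at 89.6 against 145 CPM, while the inhibitor genes *Pkia* (192 against 158 CPM) and *Pkib* (38.9 against 26.5 CPM) were higher by less than 2-fold. The type I share of regulatory UMIs was 65.1% (exact binomial 95% interval 63.5 to 66.8), against 80.6% in the other neurons of the library. These intervals cover counting error only, and 1 pool of 2 mice gives no spread between animals.

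**Figure D4:**
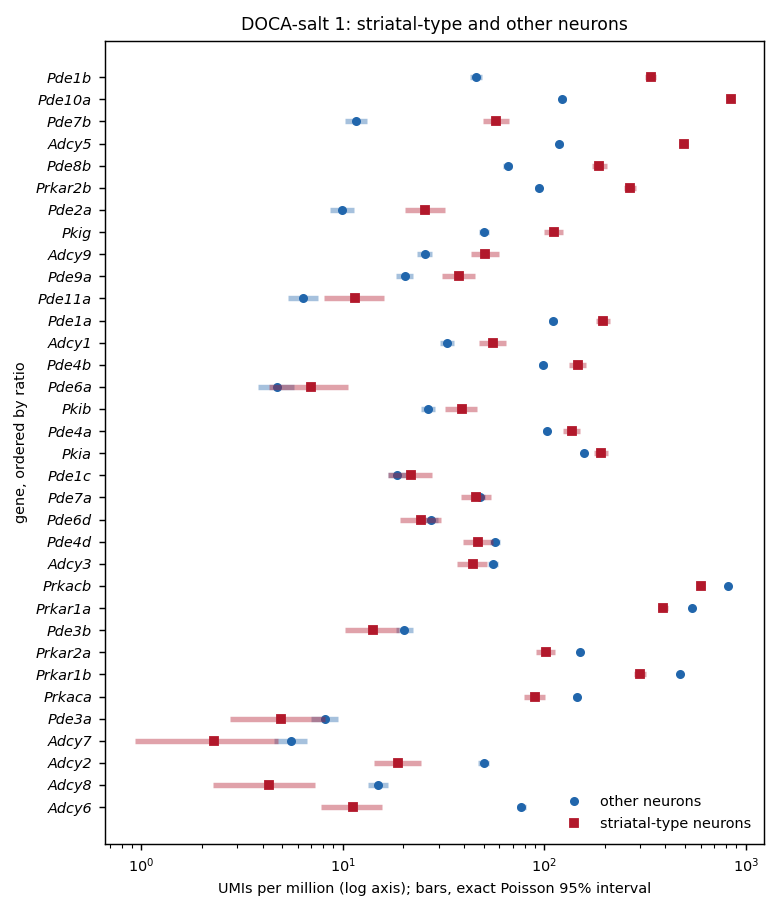
Level in CPM (horizontal log axis) of the 34 members read in striatal-type (red squares) and other neurons (blue circles) of DOCA-salt 1, with exact Poisson 95% intervals as bars and genes ordered by the ratio. *Pde1b*, *Pde10a*, *Pde7b* and *Adcy5* lie far to the right in striatal-type neurons and *Adcy6* far to the left.

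The 2 other types seen in 1 library departed less. In the melanin-concentrating hormone neurons of DOCA-salt 2, 1 of 31 members read was past 2-fold (3.23%, against 1.75% of all genes), *Pde7b* at 29.5 CPM (22.5 to 38.0) against 13.2 CPM (12.1 to 14.3). In the orexin neurons of that library 0 of 28 were, against 1.52% of all genes, and the largest ratio was that of *Adcy8*, at 27.0 CPM (17.7 to 39.6) against 14.8 CPM (13.7 to 16.0). None of these values has a replicate.

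DOCA-salt and Sham libraries were then compared within each class. No member was called in any of 14 fits, over all nuclei, the 7 broad classes and the 6 neuron types, by edgeR or by DESeq2, among 327 values of the 41 members tested in at least 1 fit. Over all genes 0.025% of the values passed. The median log2 fold change of the members was 0.05 over all nuclei and 0.06 in neurons, against 0.03 and 0.03 for all genes tested. In bulk sums over all nuclei, fewer nuclei of a type and less RNA per nucleus cannot be told apart. At an unadjusted p under 0.05 there were 7 of 41 members over all nuclei (17.1%, against 8.45% of all genes) and 6 of 38 in neurons (15.8%, against 7.99%).

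The 5 members with the lowest p in neurons were *Pde1b*, *Pkig*, *Pde1a*, *Pde1c* and *Pde11a*. *Pde1b* levels were 72.3 and 52.7 CPM in the DOCA-salt libraries against 38.6 and 32.9 CPM in the Sham libraries, a log2 fold change of 0.77 ± 0.19 (FDR = 0.622). Without striatal-type nuclei, DOCA-salt 1 dropped to 42.8 CPM and the log2 fold change was 0.39 ± 0.19 (FDR = 0.617). *Pkig* stood at 56.6 and 58.0 CPM against 34.6 and 39.9 CPM (0.59 ± 0.15, FDR = 0.622). It kept this order without striatal-type nuclei, at a log2 fold change of 0.51 ± 0.17 (FDR = 0.586).

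*Pde1a* was measured at 109 and 77.7 CPM against 60.3 and 61.7 CPM (0.58 ± 0.18, FDR = 0.622). *Pde1c*, of the same calcium-dependent family, lay the other way, at 18.4 and 8.53 CPM against 23.8 and 27.1 CPM (-0.97 ± 0.34, FDR = 0.622). *Pde11a* stood at 6.32 and 2.34 CPM against 10.0 and 9.61 CPM (-1.24 ± 0.45, FDR = 0.622). The same genes except *Pde1c* led over all nuclei with *Pde8a* as the fifth, at 5.16 and 6.60 CPM against 9.79 and 8.93 CPM (-0.70 ± 0.25, FDR = 0.572). The 2 groups of libraries did not overlap for 13 of 38 members in neurons (34.2%) and 14 of 41 over all nuclei (34.1%), against 43% of all genes in each.

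**Figure D5:**
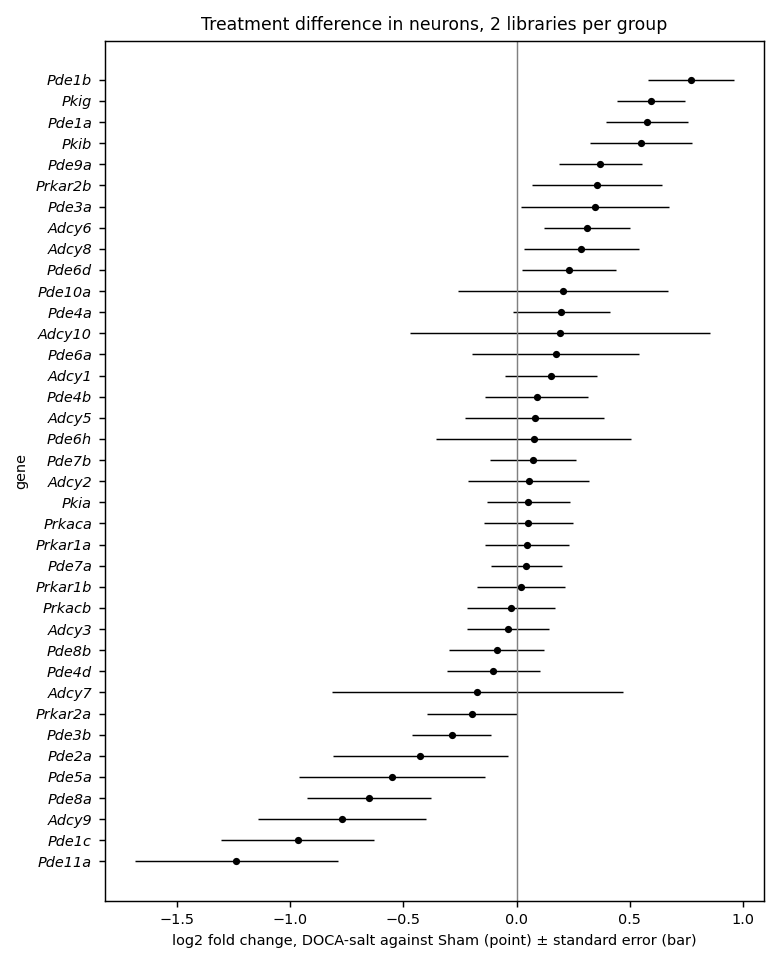
Log2 fold change between DOCA-salt and Sham in neurons (horizontal axis, point) with its standard error (bar) for the 38 members tested, 2 libraries per group. *Pde1b* is highest at 0.77 and *Pde11a* lowest at -1.24, PKA subunits lie near 0, and no member was called.

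For *Pde10a* and *Adcy5*, the DOCA-salt libraries lay on either side of Sham. Over all nuclei *Pde10a* had 178 and 56.2 CPM in the DOCA-salt libraries against 89.8 and 96.6 CPM in the Sham libraries, and *Adcy5* was 146 and 74.2 CPM against 102 and 101 CPM. Summed striatal markers over all nuclei were 464 CPM in DOCA-salt 1 and 103 to 120 CPM in the other 3 libraries. Without the striatal-type nuclei *Pde10a* in neurons was 122 and 61.5 CPM against 103 and 112 CPM, so the groups still overlapped. *Prkar2b* over all nuclei was 106 CPM in DOCA-salt 1, the library with the most striatal markers, and 55.0 to 65.4 CPM elsewhere. It also stood higher there in the other neurons, which leave out striatal-type nuclei, at 93.8 CPM against 57.0 CPM in DOCA-salt 2.

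Which DOCA-salt library was used decided the treatment calls. Against both Sham libraries, DOCA-salt 2 alone gave 23 calls of members over the 14 fits and DOCA-salt 1 alone gave 11, and leaving out either Sham library gave 0. These were 6.65% and 3.12% of the member values, against 4.76% and 1.16% over all genes. In neurons they were 8 of 39 and 5 of 38 members, where 12.2% and 4.23% of all genes were called, so many other genes moved with them. In neurons *Pde10a* had a log2 fold change of -0.80 without DOCA-salt 1 and 0.79 without DOCA-salt 2, each with an FDR under 0.05 (0.0121 and 0.00471). *Pde1b* in neurons kept its direction both ways, at 0.57 without DOCA-salt 1 and 0.95 without DOCA-salt 2. Its neuronal level of 72.3 CPM in DOCA-salt 1 includes striatal-type nuclei at 339 CPM, beside 46.0 CPM in the other neurons of that library. Both fits also share the same Sham libraries. A lone library in these fits is taken to vary like the Sham pair.

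The treatment difference in neurons was also set against that in each other broad class. No member of the 30 tested in this added fit had a difference with an FDR under 0.05 (edgeR, class by treatment term). Of 8520 genes tested, 0 to 8 passed in a class. With 30 members tested in each of the 6 classes, 6 values had an unadjusted p under 0.05. The share of all genes at that p is not given here, so the count of 6 values is a description only. The smallest FDR was that of *Pde1c* in oligodendrocytes, 0.595, with a difference of 1.61 ± 0.52.

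With all libraries in the fit, PKA subunits differed little between treatments. Over the 14 fits their log2 fold changes lay between -0.62 for *Prkar2a* in oligodendrocytes and 0.50 for *Prkar1a* in mural nuclei, with no FDR under 0.725. *Pkia* lay between -0.23 and 0.38. *Pkib* reached 1.30 ± 0.61 in dopaminergic neurons (FDR = 0.785), with levels of 32.4 and 126 CPM under DOCA-salt against 10.5 and 41.5 CPM under Sham, and the groups overlapped. Some values were larger in fits without 1 DOCA-salt library. Without DOCA-salt 2, *Prkar2b* had a log2 fold change of 0.70 over all nuclei and 0.73 in neurons. Without DOCA-salt 1, *Pkib* had 0.79 and *Pkig* 0.64 in neurons, and *Pkib* had 2.17 in dopaminergic neurons.

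A further 36 genes of the pathway were read, among them G proteins, cAMP-binding channels, Epac exchange factors, CREB cofactors and A-kinase anchoring proteins. Between broad classes 25 were tested. Of their 175 values 8, in 4 genes, passed the threshold (4.57%, against the 8.13% over all genes), 4 higher and 4 lower. *Rapgef3*, which encodes Epac1, a cAMP sensor that works beside PKA, was high in astrocytes (1.63 ± 0.18, FDR = 4.58e-11), at 201, 167, 163 and 71.4 CPM against 30.6 to 33.7 CPM in neurons. It was called lower in neurons (-1.24 ± 0.14) and microglia (-1.06 ± 0.29). The CREB coactivator gene *Crtc3* was high in astrocytes (1.48 ± 0.18, FDR = 1.15e-09).

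*Hcn2*, which encodes a channel that binds cAMP directly, was highest in oligodendrocytes (1.86 ± 0.13, FDR = 1.37e-17). Its levels there were 176, 206, 180 and 164 CPM against 39.8, 80.0, 63.2 and 43.2 CPM in neurons. The anchoring protein gene *Akap13* was called higher in microglia (1.45 ± 0.21) and lower in neurons (-1.03 ± 0.14) and oligodendrocytes (-1.35 ± 0.24). Between neuron types 0 of 192 values of these genes passed by edgeR, against the 1.4% over all genes. Between treatments none passed in the main edgeR fits, with 3 calls by DESeq2, all of *Akap12*, an anchoring protein also named gravin. It had 37.2 and 35.6 CPM in neurons under DOCA-salt against 91.3 and 67.2 CPM under Sham (edgeR log2 fold change -1.15 ± 0.19, unadjusted p = 8.53e-04, FDR = 0.622, and DESeq2 adjusted p = 0.00114). DESeq2 called 85 of 15942 genes in neurons and 109 of 16564 over all nuclei. Without the filter on low counts edgeR also called *Akap12* over all nuclei (FDR = 0.00102), in neurons (FDR = 0.0120) and in the other neurons (FDR = 7.17e-05).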

How the data were processed

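Single-nucleus RNA was measured with 10x Genomics 3' chemistry in 4 libraries. The deposited values are UMI counts, one per gene and barcode and not normalized, which the authors obtained with Cell Ranger 3.0.1 (per the submitters' processing notes) and the mm10 genome; whether introns were counted was not given in the sources used here. The study tested nuclei as replicates, which was not done here.

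The study's limits were applied: over 200 and under 7000 genes detected, under 25000 UMIs, and a mitochondrial share under 15%. A nucleus entered a non-neuronal class with at least 4 marker UMIs from at least 2 markers, at a share at least 4 times the mean over libraries and 2 times that of the next class, and with a neuronal marker share under 0.6 of its mean. Neurons were at or above 0.6, and 2465 nuclei (6.29%) lay within 10% of this limit. Neuron types were gated by the same rule within neurons. Nuclei meeting neuronal and non-neuronal rules together stayed ungated; no doublet caller was run.

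Counts were summed per library and class and tested with edgeR 4.0.16 (TMM, filter on low counts, quasi-likelihood, Benjamini-Hochberg FDR over all genes of a contrast) under R 4.3.3. Class fits had the library as a block and required 10 nuclei in each library; treatment fits had no covariate. A library left alone in a group was kept in the fit. Alternatives were DESeq2 1.42.0, RLE size factors, no filter, all barcodes, a stricter gate, thinning, other blocks and leaving out libraries; types in at least 2 libraries, the class by treatment term, a fit without mural nuclei and crossed blocks were chosen after seeing the data. Types present in 1 library were compared with the other neurons of that library where a gene averaged at least 10 expected UMIs, with no test. Intervals and exact permutation tests used scipy 1.17.1. The treatment fit was also run on simulated counts with 200 changed genes at a log2 fold change of 2. It recovered 100% in neurons and 80.1% in *Ghrh* neurons of those tested, all in the right direction. The simulated spread was a fixed setting not taken from these pools, so these shares do not measure the power of the treatment comparison. Named genes were the called members, the 5 lowest p over all nuclei and over neurons, the PKA genes, and *Pde10a*, *Adcy5* and *Pde1b*. The members and lists were chosen with earlier results of these data known. Replicates are separate pools of mice. Treatment p-values reflect the spread between pools, and class p-values reflect the spread of class differences over libraries.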

Additional observations from a re-analysis of the deposited data

How the results depend on the processing

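Counts below are of calls. Members called between broad classes (19) stayed between 13 and 26 under every alternative except thinning, and 12 to 19 of the 19 calls were shared. Among fits without one library, *Adcy8* in astrocytes and *Pde3a* in mural nuclei were called only in that without Sham 2. *Adcy7* in microglia was called only in that without Sham 1. The fits without one library tested 24 to 27 members, where the main fit tested 29. A call absent from such a fit can therefore mean that the gene was not tested in it, rather than that it missed the threshold. Thinning to the smallest sum left 1012 genes and 3 members in that fit and gave 0 calls of members between broad classes, 0 of pathway genes between broad classes (8) and 0 of members between neuron types (4). Members called between neuron types were 2 without the library block, 2 to 3 without one library (2 without DOCA-salt 2 and 2 without Sham 1), and 8 with types present in at least 2 libraries, an alternative added after the data were seen. Pathway genes between broad classes were 7 to 12 without one library.

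Members called between treatments (0) were 3 without the filter on low counts and 0 to 23 without one library (23 without DOCA-salt 1, 11 without DOCA-salt 2). Pathway genes called between treatments (0) were 3 with DESeq2, 3 without the filter and 0 to 35 without one library (35 without DOCA-salt 1, 8 without DOCA-salt 2). The 3 member calls without the filter were *Pde11a* (log2 fold change -1.25), *Pde1c* (-1.06) and *Adcy9* (-0.88), all lower under DOCA-salt in the other neurons. In that fit 3 of 42 members were called, against 246 of 22124 genes. The labels do not say that a number pairs pools. A replicate block gave 1 call of members (*Pkib* in dopaminergic neurons) and 1 of pathway genes. Deviations of same-numbered pools from their group means correlated at -0.27 over 16564 genes, and a crossed replicate block, added afterwards, gave 0 and 3 calls. The cause of these changes was not tested.

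Of 157 alternative values of the members called between broad classes 150 kept direction and side of the threshold and 7 missed it; of 39 between neuron types 26 kept both and 13 missed it; of 125 of the 5 members with the lowest p over all nuclei and over neurons between treatments 116 kept both and 9 passed it, all without 1 DOCA-salt library. None of these reversed, but *Pde10a* in neurons, outside this tally and at 0.20 with all libraries, was -0.80 without DOCA-salt 1 and 0.79 without DOCA-salt 2. Where an alternative did not test the gene or the class, it gave no value to this tally, so such calls are not counted as missed. The type I share moved by less than 1 SD under all barcodes and the stricter gate. Mural, endothelial and small neuron-type values rest on few UMIs, so differences there could go undetected, and the size that could be detected was not measured.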

Other observations

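Of the 13 members without enough counts for the broad class fit, 6 were called in a class without the filter on low counts. These were chosen after their values were seen. The share called over all 22655 genes of that fit is not given here, so the count of 6 is a description only. *Pde4c*, a cAMP phosphodiesterase, had 2, 8, 2 and 1 UMIs in mural nuclei of DOCA-salt 1, DOCA-salt 2, Sham 1 and Sham 2, which is 39.5, 31.8, 19.9 and 30.9 CPM. Over the summed libraries that was 29.9 CPM (exact Poisson 95% interval 15.9 to 51.2) in mural nuclei against 0.180 CPM (0.113 to 0.272) in neurons, and astrocytes, microglia, oligodendrocytes and their precursors held 0 UMIs. *Pde9a*, a phosphodiesterase with high affinity for cGMP, stood at 46.7, 43.2, 40.7 and 29.4 CPM in astrocytes. Over the summed libraries this was 41.2 CPM (31.0 to 53.6) in astrocytes and 17.7 CPM (17.0 to 18.5) in neurons, and without the filter *Pde4c* was called in mural nuclei (FDR = 7.52e-11) and *Pde9a* in astrocytes (log2 fold change 1.65 ± 0.30, FDR = 1.06e-06). *Adcy1* was called in oligodendrocyte precursors (1.03 ± 0.32, FDR = 0.0279) at 37.7 CPM (26.8 to 51.5), close to the 30.9 CPM of neurons, and *Pde2a* in neurons (1.00 ± 0.32, FDR = 0.00785) at 8.91 CPM (8.39 to 9.46).

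Photoreceptor phosphodiesterase genes were low. *Pde6a* (FDR = 0.00160) and *Pde6h* (FDR = 0.00263) were the other 2 called without the filter, both in neurons. They stood there at 3.54 and 1.96 CPM over the summed libraries, and other classes held 0 to 3 UMIs of each. In microglia, endothelial and mural nuclei 3 counts equal 3.32, 4.88 and 6.90 CPM. These lie near or above the neuronal levels, so such counts do not set those classes apart from neurons. *Pde6b* and *Pde6g* had 21 and 80 UMIs in all barcodes, and *Pde6a* and *Pde6h* 707 and 406. *Pde6d*, which encodes a prenyl-binding protein rather than an enzyme, had 6883 and was read in every broad class at means between 20.3 CPM in microglia and 33.3 CPM in endothelial nuclei. *Adcy10*, the soluble cyclase that bicarbonate activates, had 166 UMIs.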
